A study of Mus musculus with 18 samples.

Results

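The genes of DNA replication and S phase followed here are 45 members chosen by symbol. They take in the MCM helicase and the proteins that load and activate it, the sliding clamp and its loader, the DNA polymerases, the enzymes of nucleotide supply, chromatin assembly factors and the regulators of the step from G1 into S phase. Every member had a probe set that carries its symbol alone, so that 45 of the 19938 genes measured by such probe sets belong to the group, and each is given by its brightest probe set. RNA came from MLg 2908, an established line of mouse lung fibroblasts that the labels give as ddY strain, newborn and WT, plated on a collagen gel and separated into the cells that had entered the gel (invading fraction) and those that had stayed on top (non-invading fraction). The 4 groups were the invading and non-invading fractions after 72 h, with 4 biological replicates each, and after 96 h, with 5 each, measured on 18 arrays. The treatment entry shared by all samples names TGFB1 beside the assay, whereas the titles name no treatment and the study's figures mark the cells as not treated. All samples are of 1 cell line, so that the spread between them is a spread between cultures and not between animals.

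Cells copy their DNA once per cycle. In G1 the origin recognition complex, Cdc6 and Cdt1 load the MCM helicase onto origins, and at the start of S phase Cdc45, the GINS complex and Mcm10 turn the loaded helicase into a moving fork. Primase and polymerase alpha then start each new strand, the clamp loader places the Pcna ring, and polymerases epsilon and delta extend the strands. Many of these genes are transcribed late in G1 and in S phase under transcription factors of the E2F family, which the retinoblastoma protein holds back until cyclins and their kinases act. The transcripts are therefore widely used as a readout of how many cells of a population are cycling.

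The letters bound by E2F factors are shown because they are shared by many members and were not used to choose them. The spellings TTTCCCGC, TTTCGCGC, TTTGCCGC and TTTGGCGC of the site were searched on both strands from 250 bases before to 50 bases after the start sites listed by RefSeq (GRCm38.p6), where 37 of the 45 members had 1 or more windows. A match was found in 14 of these 37 genes, or in 14 of 43 windows (32.6%), against 2.26% of the 32851 windows of all genes and 2.45% of those within the range of GC content of the members. That range, 38.7 to 77.3%, took in 29567 windows with a median GC content of 53.7%, beside 61.3% in the members. It therefore did not match the GC content of the members. The 14 genes were Mcm3, Mcm5, Mcm6, Mcm7, Orc1, Cdc6, Cdt1, Gins3, Rfc3, Pola1, Pole2, Pold1, Lig1 and Uhrf1. TTTGCCGC was in 0 windows of the members. Matched stretches are printed below for Pole2, the member with the most negative difference at 72 h, for Cdt1, the member with the largest difference at 96 h, for Rfc3, which rose with time in both fractions, and for Mcm5, which fell with time in the non-invading fraction. Capitals mark the matches, and each stretch runs 5′ to 3′ on the strand of the gene.
Pole2 (chr12:69228161-69228290, minus strand): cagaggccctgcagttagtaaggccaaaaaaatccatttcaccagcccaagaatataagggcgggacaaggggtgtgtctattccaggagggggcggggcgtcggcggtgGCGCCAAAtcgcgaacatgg
Cdt1 (chr8:122568035-122568064, plus strand): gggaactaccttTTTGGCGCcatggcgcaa
Rfc3 (chr5:151651179-151651308, minus strand): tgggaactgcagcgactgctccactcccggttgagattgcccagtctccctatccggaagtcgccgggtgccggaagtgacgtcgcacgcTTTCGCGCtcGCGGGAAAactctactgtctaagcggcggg
Mcm5 (chr8:75109339-75109438, plus strand): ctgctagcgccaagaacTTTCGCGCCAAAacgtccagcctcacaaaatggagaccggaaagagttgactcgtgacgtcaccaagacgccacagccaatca
In Mcm5 the capitals cover 2 overlapping matches on opposite strands, TTTCGCGC and TTTGGCGC, and Mcm6 holds a pair of the same kind. A match describes the letters of the window and not the binding of a factor.

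**Figure D1:**
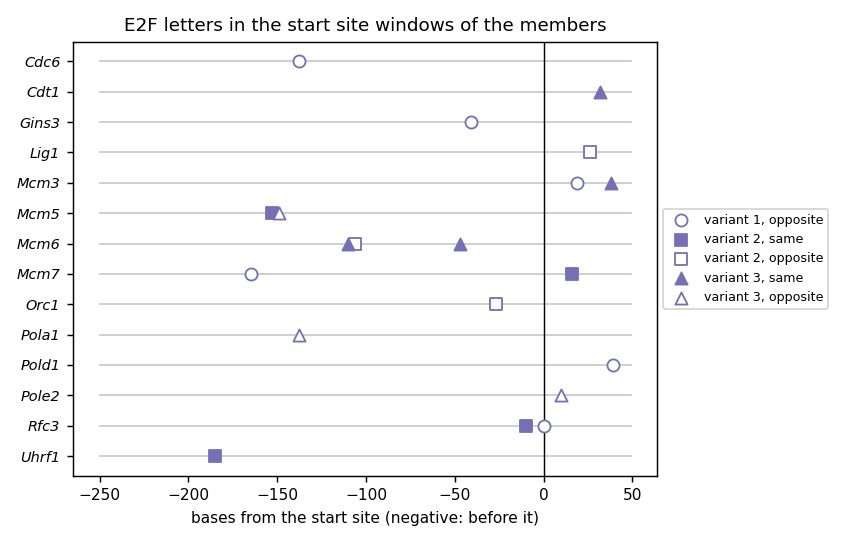
Position of each E2F match in the windows of the 14 members that hold 1 or more (horizontal axis, bases from the start site, negative before it; a row per gene). Variant 1 is TTTCCCGC, variant 2 TTTCGCGC and variant 3 TTTGGCGC, filled on the strand of the gene and open on the opposite strand. The 20 matches begin between base -185 and base 39 as counted from the start site, and Mcm6 holds 3 of them.

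Fibroblast markers were high in every group, with group means of the log2 signal between 11.8 and 13.6 for collagens I and III, Pdgfra, Pdgfrb, Vim, Fn1, Dcn and Lum, while the marker Thy1 lay between 5.89 and 6.26. At both times the invading fraction was lower in Col1a1 (-0.25 at 72 h and -0.24 at 96 h), Col1a2 (-0.20 at each) and Col3a1 (-0.34 and -0.35), and at 72 h it was higher in Pdgfrb (0.27), so that 4 of 10 fibroblast markers passed the test at 72 h and 3 at 96 h. The markers of epithelial, endothelial and blood cells lay between 4.01 and 7.88. Those of smooth muscle, Myh11, Des and Cnn1, had group means of 6.07 to 6.91, with 0 of 3 past the test at 72 h (limma; 0 at an unadjusted p under 0.05) and 2 higher in the invading fraction at 96 h, Des by 0.47 and Myh11 by 0.18. At 72 h 1 of 6 epithelial markers was higher in the invading fraction (Krt8, 0.53 on the log2 scale), and at 96 h 3 were (Krt8, Epcam and Cdh1), with the macrophage marker Cd68 (0.56) as 1 of 4 markers of blood cells. The mean over the epithelial list ran from 5.88 to 6.05 and from 5.67 to 5.90 in the invading and non-invading samples of 72 h, and from 5.78 to 5.88 and from 5.60 to 5.78 at 96 h, and the part of all these markers in the results was not tested. Of the members, 43 of 45 lay above the median of all genes. Samples of 1 group differed in the level of the whole set, and more so in the non-invading fraction. The mean over the 45 members was 9.27 and 9.28 in non-invading replicates 1 and 2 of 72 h but 9.01 and 8.97 in replicates 3 and 4, and 38 of 45 members were higher in both of the former than in both of the latter (25.5% of all genes were). Among the non-invading samples of 96 h, replicate 4 stood at 9.33 and the others between 8.88 and 9.05. Replicate 4 was the highest sample of its group for 41 of 45 members (21.3% of all genes), and its mean over 32 mitotic genes, 9.41, was above the 8.87 to 9.04 of the other samples too. In the invading fraction the means ran from 8.96 to 9.06 at 72 h and from 9.14 to 9.24 at 96 h. Each result that follows was also computed without each sample in turn.

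**Figure D2:**
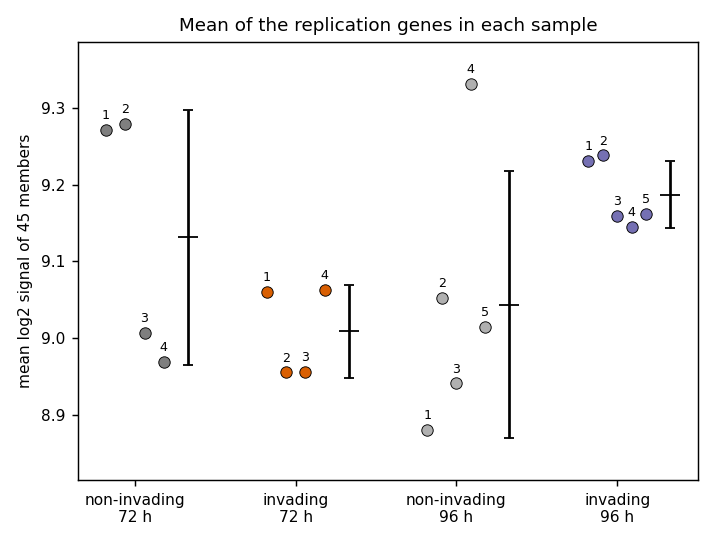
Mean log2 signal of the 45 replication genes (vertical axis) in every sample of the 4 groups, with the replicate number above each point and the mean ± SD of the group beside it. The group means were 9.13 ± 0.17 and 9.01 ± 0.06 (non-invading and invading, 72 h, n = 4) and 9.04 ± 0.17 and 9.19 ± 0.04 (96 h, n = 5), and non-invading replicate 4 of 96 h is the highest point.

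At 72 h the replication genes that differed between the fractions were mostly lower in the invading cells. Differences are given as log2 values of the invading over the non-invading fraction, and a member passed the test at an adjusted p under 0.10 (limma, adjusted over all probe sets). Of the 45 members, 13 passed, 1 higher and 12 lower, beside 26.5% of all genes (13.0% higher and 13.5% lower). The fractions did not overlap in 11 members, all lower in the invading fraction, beside 12.3% of all genes lower and 12.5% higher. The differences ran from -0.73 to 0.42 with a median of -0.06, against 0.04 over all genes, and the median of the members turned to 0.02 when every array was centred on the median of all probe sets, with 1 member higher and 7 lower. Leaving out 1 sample gave medians from -0.14 to -0.02, and moved the median by over 1.5 times in the case of invading replicate 1 (-0.10) or 3 (-0.02) and of non-invading replicate 1 (-0.03), 2 (-0.03), 3 (-0.10) or 4 (-0.14). At 96 h the balance of the members that passed was the other way, with 13 higher and 1 lower of 14, beside 31.4% of all genes (16.7% higher and 14.7% lower). At both times the total of members that passed, in either direction, was close to the share of all genes. The differences of 96 h ran from -0.35 to 0.79 with a median of 0.14, against 0.02 over all genes. The fractions did not overlap in 6 members higher in the invading cells, beside 9.35% of all genes, and in 1 lower, beside 8.80%. Without non-invading replicate 4 of 96 h, 24 members were higher and 1 lower, with a median of 0.22. The 11 added were Mcm2, Cdc6, Mcm10, Cdc45, Gins2, Rfc4, Pole, Pold2, Tk1, Lig1 and Uhrf1. Centring every array on the median of all probe sets moved the median of all genes at 96 h by 0.12 and that of the members to 0.26, with 26 higher and 1 lower. Centring on the probe sets with 1 symbol moved the median of all genes by 0.04 at 72 h and 0.0076 at 96 h. The median of the unnamed probe sets described above was 5.37 to 5.59 in the invading and 5.81 to 6.20 in the non-invading samples. That of probe sets with 1 symbol was 7.14 to 7.19 and 7.17 to 7.20. The part of the unnamed probe sets in the results was not tested. The shares of all genes past the test were not counted with a sample left out or after centring. The counts of members in these settings thus have no background beside them. In such bulk samples fewer cells in S phase and less of these transcripts per cell cannot be told apart.

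**Figure D3:**
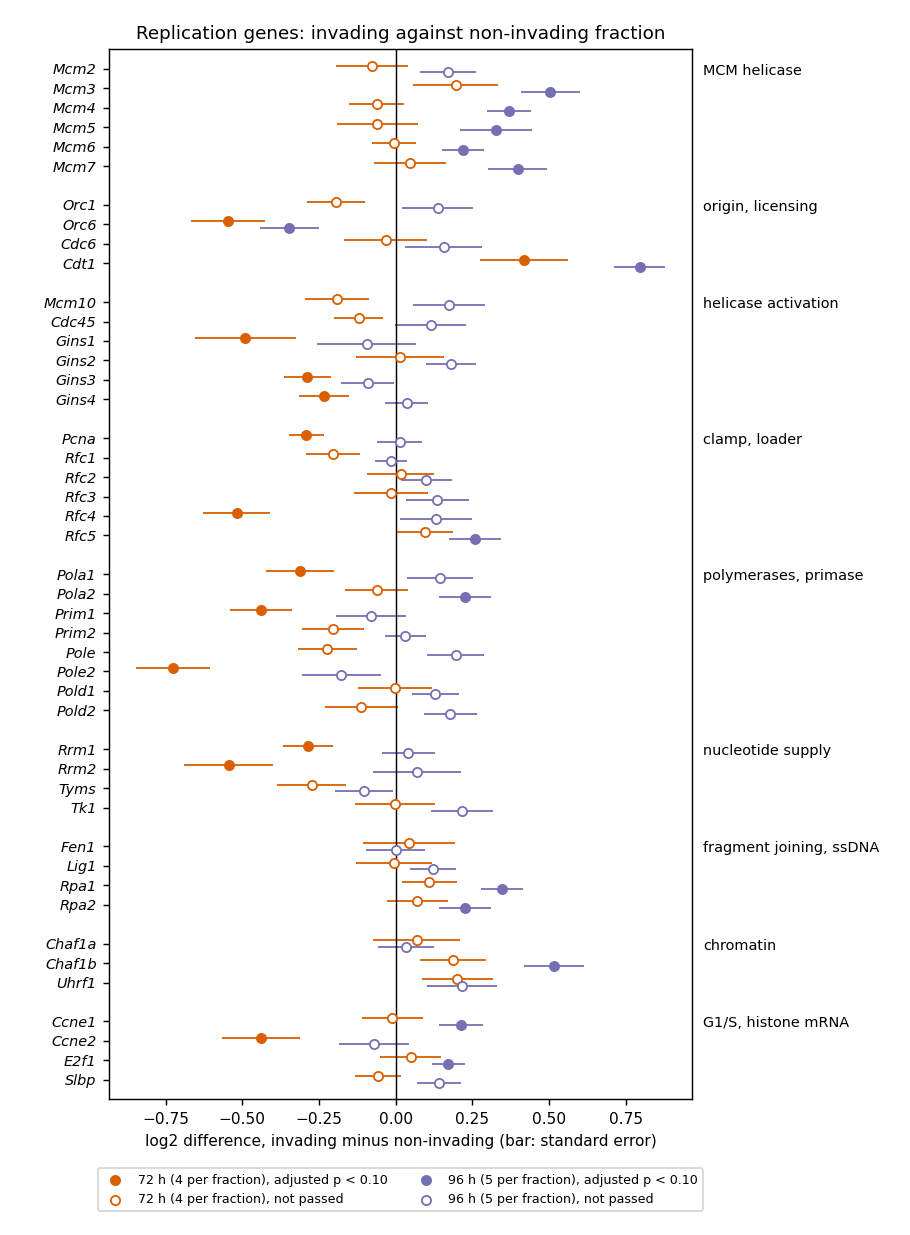
Log2 difference between the invading and the non-invading fraction (horizontal axis, bars show the standard error) for each of the 45 members, grouped by role, at 72 h (n = 4 per fraction) and 96 h (n = 5). Filled points passed the test. At 72 h 12 of the 13 filled points lie below 0 and at 96 h 13 of 14 above it, and Orc6 and Cdt1 are filled at both times.

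The MCM helicase is a ring of the proteins Mcm2 to Mcm7 that unwinds DNA at the fork. At 72 h 0 of its 6 genes passed the test, with differences between -0.08 and 0.20 and adjusted p of 0.36 to 0.97 (limma; 0 at an unadjusted p under 0.05). At 96 h 5 of 6 were higher in the invading fraction, by 0.22 to 0.50. Mcm3 had log2 signals of 9.73, 9.80, 9.80, 9.58 and 9.64 in the 5 invading and 8.99, 9.23, 9.15, 9.55 and 9.12 in the 5 non-invading samples of 96 h, and every invading sample was above every non-invading sample. Its difference was 0.50 (standard error 0.10, ratio 1.42, adjusted p = 0.0029 from limma). At 72 h the same gene stood at 9.74, 9.63, 9.40 and 9.55 in the invading and 9.59, 9.66, 9.19 and 9.10 in the non-invading samples, which overlapped. Mcm7 stood at 10.36, 10.54, 10.25, 10.29 and 10.35 in the invading and 9.83, 9.93, 9.85, 10.31 and 9.88 in the non-invading samples of 96 h. There replicate 4 of the non-invading samples alone reached the invading range, and the difference was 0.40 (standard error 0.10, adjusted p = 0.01 from limma). Its 72 h values were 10.38, 10.22, 10.16 and 10.23 in the invading and 10.35, 10.44, 10.09 and 9.91 in the non-invading fraction, where the extremes of both fractions overlapped. Mcm4 differed by 0.37 at 96 h without overlap (adjusted p = 0.0032, limma) and Mcm6 by 0.22 (adjusted p = 0.035).

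Mcm5 and Mcm2 had the highest adjusted p of the ring at 96 h. Mcm5 stood at 9.49, 9.65, 9.61, 9.61 and 9.63 in the invading and 9.00, 9.25, 9.14, 9.74 and 9.23 in the non-invading samples of 96 h, and the highest non-invading sample, replicate 4, exceeded all invading samples. The difference was 0.33 (standard error 0.12, adjusted p = 0.059 from limma), and its adjusted p ran from 0.10 to 0.12 without invading replicate 2, 3, 4 or 5 or non-invading replicate 1, 2, 3 or 5. At 72 h Mcm5 stood at 9.82, 9.51, 9.49 and 9.94 in the invading and 9.79, 10.01, 9.63 and 9.56 in the non-invading samples. From 72 to 96 h the non-invading fraction changed by -0.48 (standard error 0.13, adjusted p = 0.015 from limma), and the invading fraction by -0.09 (adjusted p = 0.67). Mcm2 did not pass in any comparison. It stood at 10.32, 10.31, 10.05 and 10.21 and 10.46, 10.52, 10.14 and 10.07 in the invading and non-invading samples of 72 h and at 10.19, 10.24, 10.26, 10.22 and 10.33 and 9.94, 10.03, 9.98, 10.45 and 9.99 at 96 h. Its difference at 96 h was 0.17 (standard error 0.09, adjusted p = 0.2 from limma), and 0.26 (adjusted p = 0.0037) without non-invading replicate 4, whose value was above those of all invading samples.

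Among the 4 genes of origin recognition and licensing, Cdt1 and Orc6 went in opposite directions at both times. Cdt1 brings the MCM ring to the origin. Its log2 signals were 9.10, 9.15, 9.07, 9.11 and 9.00 in the invading and 8.32, 8.27, 8.16, 8.59 and 8.12 in the non-invading samples of 96 h, wholly apart. The difference of 0.79 (standard error 0.08, ratio 1.73, adjusted p = 0.00011 from limma) was the largest of the 45 members at that time. At 72 h the values were 9.32, 9.12, 8.95 and 9.39 in the invading and 9.04, 8.97, 8.56 and 8.54 in the non-invading samples. The ranges overlapped, and the difference of 0.42 (standard error 0.14, adjusted p = 0.07 from limma) lost its call without invading replicate 1, 2 or 4 or non-invading replicate 3 or 4, at adjusted p of 0.11 to 0.17. Over time Cdt1 fell by 0.48 in the non-invading fraction (standard error 0.12, adjusted p = 0.0073 from limma), beside a change of -0.11 in the invading fraction (adjusted p = 0.56).

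Orc6, a small subunit of the origin recognition complex, was lower in the invading cells after 72 h and after 96 h. At 72 h it stood at 8.47, 8.51, 8.78 and 8.89 in the invading and 9.30, 9.40, 9.03 and 9.10 in the non-invading samples. Every invading sample was below every non-invading sample, with a difference of -0.55 (standard error 0.12, adjusted p = 0.013 from limma). At 96 h the values were 9.25, 9.14, 8.81, 9.13 and 9.12 in the invading and 9.27, 9.43, 9.33, 9.69 and 9.48 in the non-invading samples, again without overlap, and the difference was -0.35 (standard error 0.10, adjusted p = 0.02). The invading fraction rose by 0.43 from 72 to 96 h (adjusted p = 0.0083, limma). Cdc6, the loader that works with Cdt1, did not pass in any comparison. It stood at 7.38, 7.21, 7.60 and 7.60 and 7.63, 7.72, 7.40 and 7.17 in the invading and non-invading samples of 72 h, and at 7.65, 7.32, 7.49, 7.24 and 7.44 and 7.11, 7.38, 7.07, 7.70 and 7.10 at 96 h. All 4 groups overlapped, with differences between the fractions of -0.03 and 0.16 (adjusted p = 0.9 and 0.4), the latter 0.26 (adjusted p = 0.069) without non-invading replicate 4. Orc1, the large ATPase subunit of the complex, had differences of -0.19 at 72 h and 0.14 at 96 h, and neither passed (adjusted p = 0.18 and 0.43).

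Of the 6 genes that activate the helicase, 3 subunits of the GINS complex were lower in the invading fraction at 72 h and 0 passed at 96 h, where the lowest adjusted p was 0.13 (limma; at an unadjusted p under 0.05, Gins2 with 0.048). The difference was -0.49 for Gins1, -0.29 for Gins3 and -0.23 for Gins4 (adjusted p = 0.066, 0.027 and 0.075 from limma), and the fractions overlapped in Gins4 alone of these. The call of Gins1 was lost, at adjusted p of 0.14 to 0.15, without invading replicate 1 or 4 or non-invading replicate 1 or 2, and that of Gins4, at 0.11 to 0.16, without replicate 1, 2 or 3 of either fraction. Gins2, the fourth subunit, had a difference of 0.01 (adjusted p = 0.96), and Mcm10 and Cdc45 had -0.19 and -0.12, none of which passed.

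Pcna is the ring that holds the polymerases on DNA and a common marker of proliferating cells. At 72 h its log2 signals were 11.58, 11.57, 11.58 and 11.58 in the invading samples, almost level, and 11.84, 11.94, 11.82 and 11.89 in the non-invading samples. No value of 1 fraction reached the other, and the difference was -0.29 (standard error 0.06, ratio 0.817, adjusted p = 0.0081 from limma). At 96 h the invading samples stood at 11.82, 11.92, 11.78, 11.80 and 11.75 and the non-invading samples at 11.60, 11.84, 11.74, 12.00 and 11.82. These overlapped, with a difference of 0.01 (standard error 0.07, adjusted p = 0.92). Another probe set of Pcna gave -0.30 at 72 h (adjusted p = 0.0077) and 0.02 at 96 h.

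The clamp loader is built from Rfc1 to Rfc5 and opens the Pcna ring. At 72 h Rfc4 was its only subunit to pass. It stood at 8.98, 9.02, 9.04 and 9.06 in the invading and 9.78, 9.70, 9.35 and 9.33 in the non-invading samples, clearly apart, with a difference of -0.52 (standard error 0.11, adjusted p = 0.011 from limma). At 96 h its values were 9.89, 10.19, 9.94, 9.97 and 10.16 in the invading and 9.65, 9.93, 9.71, 10.32 and 9.89 in the non-invading samples, which overlapped (difference 0.13, adjusted p = 0.46; 0.24, adjusted p = 0.072, without non-invading replicate 4). Rfc5 was the subunit that passed at 96 h, with 0.26 (adjusted p = 0.041, limma). Rfc1, the large subunit, stood at 9.02, 8.77, 8.81 and 8.80 in the invading and 9.08, 8.96, 8.95 and 9.23 in the non-invading samples of 72 h and at 9.41, 9.36, 9.47, 9.36 and 9.31 and 9.30, 9.38, 9.42, 9.48 and 9.40 at 96 h. The fractions overlapped at both times (adjusted p = 0.14 and 0.87), whereas the samples of 96 h were above those of 72 h in both fractions. Rfc3 stood at 8.88, 8.88, 8.80 and 8.92 and 9.13, 9.08, 8.61 and 8.72 in the invading and non-invading samples of 72 h and at 9.60, 9.68, 9.32, 9.41 and 9.61 and 9.31, 9.30, 9.18, 9.70 and 9.45 at 96 h. It showed the same order, with all samples of 96 h above those of 72 h in either fraction and no difference between the fractions that passed (adjusted p = 0.95 and 0.37).

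Among the 8 genes of the polymerases and primase, the largest difference between the fractions was that of Pole2, the second subunit of polymerase epsilon, which copies the leading strand. At 72 h Pole2 stood at 8.02, 7.86, 7.94 and 7.95 in the invading and 8.87, 8.91, 8.48 and 8.40 in the non-invading samples. All invading samples were below all non-invading ones, and the difference of -0.73 (standard error 0.12, ratio 0.605, adjusted p = 0.0042 from limma) was the most negative of the 45 members. At 96 h the values were 8.26, 8.24, 8.13, 8.24 and 8.40 in the invading and 8.18, 8.38, 8.28, 8.96 and 8.35 in the non-invading samples, which overlapped with a difference of -0.18 (adjusted p = 0.34). Prim1, the catalytic primase that makes the RNA starts, stood at 8.40, 8.51, 8.79 and 8.73 in the invading and 9.17, 9.08, 8.91 and 9.02 in the non-invading samples of 72 h. Again the fractions were apart, by -0.44 (standard error 0.10, adjusted p = 0.016 from limma). At 96 h Prim1 stood at 9.41, 9.66, 9.36, 9.35 and 9.33 and 9.13, 9.68, 9.39, 9.74 and 9.56, a difference of -0.08 (adjusted p = 0.65). Pola1, the catalytic subunit of polymerase alpha, stood at 8.28, 7.97, 8.18 and 7.74 in the invading and 8.39, 8.35, 8.32 and 8.35 in the non-invading samples of 72 h. The highest invading value stayed just below the lowest non-invading one, and the difference of -0.31 (adjusted p = 0.079, limma) lost its call, at adjusted p of 0.13 to 0.16, without invading replicate 2 or 4 or any of the 4 non-invading replicates. At 96 h Pola1 stood at 8.91, 8.77, 8.69, 8.61 and 8.48 and 8.22, 8.70, 8.49, 8.75 and 8.58, with overlap and a difference of 0.14 (adjusted p = 0.36).

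Pold1 and Pold2, the catalytic and the accessory subunit of polymerase delta, had no difference between the fractions that passed. Pold1 stood at 8.77, 8.54, 8.47 and 8.76 and 8.76, 8.80, 8.66 and 8.31 in the invading and non-invading samples of 72 h and at 8.23, 8.60, 8.40, 8.30 and 8.29 and 8.13, 8.24, 8.16, 8.38 and 8.25 at 96 h. Pold2 stood at 10.71, 10.59, 10.57 and 10.95 and 10.93, 11.03, 10.72 and 10.59 at 72 h and at 10.59, 10.52, 10.52, 10.66 and 10.52 and 10.33, 10.33, 10.26, 10.72 and 10.29 at 96 h. In both genes the 96 h samples tended to lie below the 72 h samples of the same fraction, with non-invading replicate 4 of 96 h the highest of its group. At 96 h the difference of Pold2 was 0.18 (adjusted p = 0.15, limma), and 0.26 (adjusted p = 0.0046) without that replicate. Pola2, the accessory subunit of polymerase alpha, passed at 96 h with 0.22 (adjusted p = 0.074, limma), and lost its call at adjusted p of 0.10 to 0.15 without invading replicate 1, 3 or 5 or non-invading replicate 1, 2, 3 or 5.

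In nucleotide supply, both subunits of ribonucleotide reductase, which makes deoxynucleotides, were lower in the invading fraction at 72 h and neither passed at 96 h. Rrm2, the subunit that is limiting in S phase, stood at 9.00, 8.66, 8.75 and 9.21 in the invading and 9.66, 9.62, 9.24 and 9.27 in the non-invading samples of 72 h. The fractions were close but did not overlap, and the difference was -0.54 (standard error 0.14, ratio 0.686, adjusted p = 0.028 from limma). At 96 h Rrm2 stood at 9.43, 9.46, 9.39, 9.45 and 9.13 and 8.93, 9.39, 9.20, 9.82 and 9.16, with overlap and a difference of 0.07 (adjusted p = 0.77). Rrm1, the large subunit, differed by -0.29 at 72 h without overlap (adjusted p = 0.035) and by 0.04 at 96 h (adjusted p = 0.77). Thymidine kinase Tk1, which recovers thymidine for DNA synthesis, stood at 9.43, 9.21, 9.10 and 9.59 in the invading and 9.52, 9.49, 9.21 and 9.11 in the non-invading samples of 72 h and at 8.78, 8.71, 8.76, 8.92 and 8.85 and 8.31, 8.68, 8.49, 8.93 and 8.53 at 96 h. Neither difference between the fractions passed (adjusted p = 0.99 and 0.14), while the samples of 96 h lay below all those of 72 h in each fraction. The probe sets of Tk1 disagreed, since the dimmer of them gave -0.60 at 72 h (standard error 0.12, adjusted p = 0.011 from limma), and its level is uncertain for that reason. Tyms, the thymidylate synthase, had -0.27 and -0.10, which did not pass.

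Of the genes that handle unpaired strands and join fragments, Rpa1 and Rpa2, subunits of the protein that coats unwound DNA, were higher in the invading fraction at 96 h by 0.35 and 0.23 (adjusted p = 0.0034 and 0.071 from limma), the former without overlap. Rpa2 lost its call, at adjusted p of 0.12 to 0.16, without replicate 1, 3 or 5 of either fraction. Fen1 and Lig1, which trim and seal the fragments of the lagging strand, had differences between -0.01 and 0.12 and did not pass at either time. Among the chromatin genes, Chaf1b, a subunit of the factor that places new histones behind the fork, stood at 9.07, 9.18, 9.05, 9.02 and 9.38 in the invading and 8.56, 8.53, 8.47, 8.94 and 8.63 in the non-invading samples of 96 h. These did not overlap, and the difference was 0.52 (standard error 0.10, ratio 1.43, adjusted p = 0.0027 from limma). At 72 h Chaf1b stood at 9.16, 9.03, 8.81 and 9.03 and 9.03, 8.91, 8.64 and 8.70, overlapping, with 0.19 (adjusted p = 0.26). Chaf1a, its partner subunit, and Uhrf1, which reads hemimethylated DNA after replication, had 0.03 and 0.22 at 96 h and did not pass.

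Of the 4 regulators of S phase entry and of histone transcripts, 1 passed at 72 h and 2 at 96 h. E2f1, an activating E2F factor, stood at 10.05, 9.94, 9.81 and 10.06 and 10.08, 10.03, 9.72 and 9.83 in the invading and non-invading samples of 72 h and at 10.07, 10.16, 10.16, 9.96 and 10.08 and 9.88, 9.98, 9.86, 9.90 and 9.95 at 96 h. The fractions overlapped at both times, by little at 96 h, where the difference of 0.17 passed (standard error 0.05, adjusted p = 0.035 from limma). Ccne1, a cyclin E, stood at 8.77, 8.96, 8.71, 8.75 and 8.93 in the invading and 8.47, 8.68, 8.51, 8.69 and 8.70 in the non-invading samples of 96 h. Their ranges just missed each other, with a difference of 0.21 (adjusted p = 0.045) that lost its call narrowly, at 0.18 to 0.19 and an adjusted p of 0.10 from limma, without invading replicate 2 or non-invading replicate 3. At 72 h Ccne1 stood at 8.95, 8.58, 8.57 and 8.85 and 8.68, 8.87, 8.69 and 8.75, with full overlap. Ccne2, the other cyclin E, passed at 72 h, where it stood at 7.64, 7.49, 7.81 and 8.13 in the invading and 8.29, 8.20, 8.25 and 8.10 in the non-invading samples. Invading replicate 4 alone reached the non-invading range, and the difference was -0.44 (standard error 0.13, adjusted p = 0.04 from limma). At 96 h Ccne2 stood at 8.28, 8.36, 8.10, 8.11 and 8.01 and 7.88, 8.42, 8.09, 8.45 and 8.35, with a difference of -0.07 (adjusted p = 0.7). Slbp, which binds the stem-loop of histone transcripts, stood at 9.20, 9.06, 8.92 and 9.14 and 9.19, 9.07, 9.15 and 9.14 at 72 h and at 9.32, 9.42, 9.43, 9.28 and 9.19 and 9.07, 9.33, 9.15, 9.29 and 9.09 at 96 h, and the fractions overlapped at both times (adjusted p = 0.63 and 0.17).

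**Figure D4:**
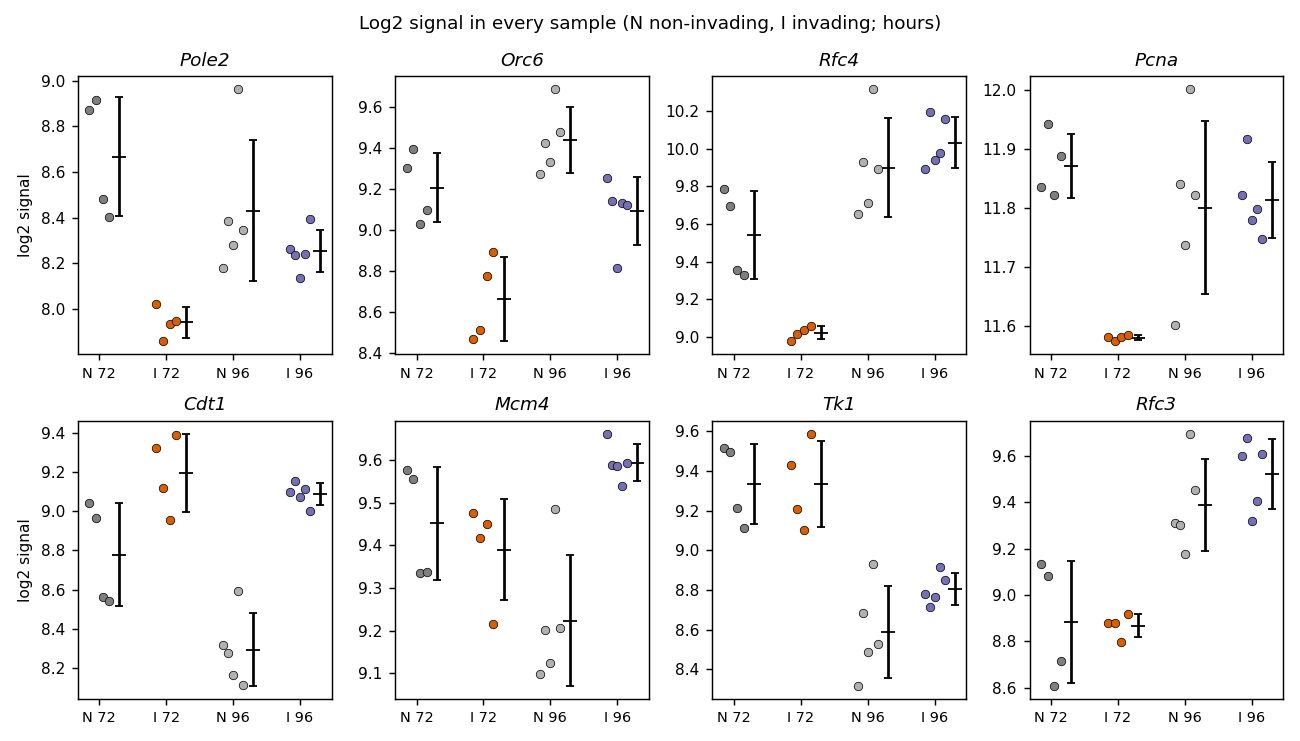
Log2 signal (vertical axis) of 8 members in every sample (points), with the mean ± SD of each group beside it, for the non-invading (N) and invading (I) fractions of 72 and 96 h. For Pole2, Rfc4 and Pcna all 4 invading samples of 72 h lie below every other sample, whereas Cdt1 and Mcm4 have their lowest values among the non-invading samples of 96 h.

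Between 72 and 96 h more of the members that passed rose than fell in the invading fraction, and more fell than rose in the non-invading fraction. In the invading fraction 18 of 45 passed, 16 higher and 2 lower at 96 h, beside 34.8% of all genes (18.2% higher and 16.7% lower), with a median change of 0.14 against -0.03 over all genes. In the non-invading fraction 16 passed, 5 higher and 11 lower, beside 27.6% of all genes (15.4% higher and 12.2% lower), with a median of -0.14 against -0.02. The times did not overlap in 14 members higher and 2 lower at 96 h in the invading fraction, beside 13.3% and 10.3% of all genes, and in 3 higher and 1 lower in the non-invading fraction, beside 12.2% and 7.80%. In the non-invading fraction both of these counts were below the shares of all genes, and they did not show the balance of the calls. Of the members called lower there, Tk1 alone had times that did not overlap. Without non-invading replicate 4 of 96 h the calls in that fraction were 5 higher and 18 lower, and the share of all genes was not counted in that setting. The median of -0.14 became -0.08 without non-invading replicate 1 and -0.09 without replicate 2 of 72 h, and -0.07 without replicate 1 of 96 h. The comparisons over time share their samples with the comparisons of the fractions, and are given as further values of the same 18 arrays. Over the 45 members the changes in the invading and the non-invading fraction had a Pearson's r of 0.86 and a Spearman's rho of 0.83, a description across genes that share arrays and are not independent. The change in the invading fraction was above that in the non-invading fraction for 43 members and below it for Fen1 and Chaf1a. By arithmetic this is the same quantity as the shift between times given below, where the count over all genes stands beside it.

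The largest rises belonged to the clamp loader and primase. Rfc4, whose values are given above, rose by 1.01 in the invading fraction (standard error 0.12, ratio 2.01, adjusted p = 1.2e-05 from limma) and by 0.36 in the non-invading fraction (adjusted p = 0.045), where the call was lost at an adjusted p of 0.14 without replicate 3 or 4 of 72 h. Prim1 rose by 0.81 (standard error 0.11, adjusted p = 5.4e-05) and 0.46 (standard error 0.11, adjusted p = 0.0089), in that order. Rfc3 rose by 0.66 and 0.50 (adjusted p = 0.00046 and 0.0051) and Rfc1 by 0.53 and 0.34 (adjusted p = 1.8e-05 and 0.0016). Gins3 also passed in both fractions, with 0.47 and 0.28. These 5 genes were the members higher at 96 h in both fractions. Pola1 rose by 0.65 in the invading fraction (standard error 0.11, adjusted p = 0.00045), beside 0.20 in the non-invading fraction, which did not pass. Pcna rose by 0.23 in the invading fraction (adjusted p = 0.013, limma), Slbp by 0.25 (adjusted p = 0.018), Rrm2 by 0.47 (adjusted p = 0.035) and Ccne2 by 0.40 (adjusted p = 0.029). Another, dimmer probe set of Slbp gave 0.55 for the same change (adjusted p = 0.00056, limma), over 1.5 times as large, and -0.21 and 0.14 for the differences between the fractions at 72 and 96 h, which did not pass. Without invading replicate 2 of 72 h the adjusted p of Rrm2 and Ccne2 was 0.11.

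Tk1 fell most, followed in the non-invading fraction by Cdt1 and Mcm5, whose changes are given above, and then by subunits of polymerase delta. Tk1 was lower at 96 h in both fractions, by -0.53 in the invading (standard error 0.12, adjusted p = 0.0036 from limma) and -0.75 in the non-invading fraction (standard error 0.12, adjusted p = 0.00037), and its other probe set gave -0.05 (adjusted p = 0.80) and -0.50 (adjusted p = 0.0041). Pold1 was lower by -0.27 (adjusted p = 0.061) and -0.40 (adjusted p = 0.0092), the former not past the test without invading replicate 1 or 4 of 72 h or 1, 4 or 5 of 96 h (adjusted p of 0.11 to 0.17). In the non-invading fraction Pold2 changed by -0.43 (standard error 0.10, adjusted p = 0.0072 from limma) and Pole, the catalytic subunit of polymerase epsilon, by -0.39 (adjusted p = 0.0087). Mcm4 was the member that passed in opposite directions, with 0.20 in the invading and -0.23 in the non-invading fraction (adjusted p = 0.074 and 0.053). Its calls were lost without 1 of 6 samples in the former case (adjusted p of 0.10 to 0.24; invading replicates 2 and 4 of 72 h and 1, 2, 3 and 5 of 96 h) and without 1 of 4 in the latter (0.12 to 0.16; non-invading replicates 1 and 2 of 72 h and 1 and 3 of 96 h).

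**Figure D5:**
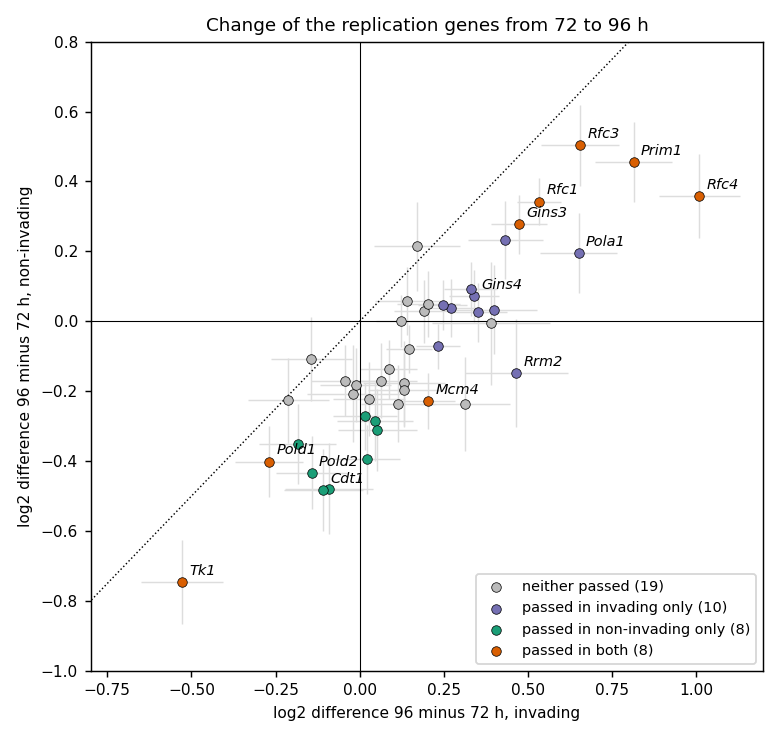
Log2 change from 72 to 96 h in the invading (horizontal axis) and the non-invading fraction (vertical axis) for the 45 members, with bars of the standard error and colours for the fractions in which a member passed the test. The dotted line marks equal change, 43 of 45 members lie below it, and Rfc4, Prim1 and Rfc3 rose most while Tk1 fell most.

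The difference between the fractions itself was compared between the times in 1 fit over all 18 samples. None of the members passed (0 of 45, adjusted p of 0.27 to 0.99 from limma), beside 3 of all genes (0.0150%). An unadjusted p under 0.05 (limma) was found for 17 of the 45 members, beside 3062 of all probe sets. The total of probe sets is given with the processing below. The shift was positive, towards the invading fraction at 96 h, for 43 of 45 members and for 9601 of the 19938 genes, with a median of 0.24 over the members and -0.01 over all genes. The lowest unadjusted p belonged to Mcm4 with a shift of 0.43 (standard error 0.11, adjusted p = 0.27 from limma) and Rfc4 with 0.65 (standard error 0.17, adjusted p = 0.27). The counts of 12 lower members at 72 h and 13 higher members at 96 h are therefore not shown to differ gene by gene. Between times, with no sample in common, the differences of the 45 members had a Pearson's r of 0.78 and a Spearman's rho of 0.71 across genes, and 24 members were negative at 72 h and positive at 96 h. That change of sign was not counted over all genes. Cdt1 was the member higher, and Orc6 the member lower, at both times.

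Other genes of the same processes were counted from lists of genes that are not members. Of 43 further genes of replication and repair at the fork, 18 were lower and 2 higher in the invading cells of 72 h, with a median of -0.25, beside 13.5% of all genes lower and 13.0% higher. Among them Atad5, which unloads Pcna, had -0.83 (standard error 0.11, adjusted p = 0.0017 from limma), the chromatin remodeller Hells -0.70 and Cdc7, the kinase that fires origins, -0.58. At 96 h 7 were higher and 5 lower, with a median of 0.01, close to the shares of all genes (16.7% and 14.7%). Atad5 and Cdc7 were still lower, with -0.63 and -0.45, as was Brca2, a gene of DNA repair, with -0.44. In the invading fraction 24 rose and 3 fell with time, led by the histone chaperones Nasp (0.87) and Asf1a (0.75) and the fork protein Tipin (0.71), and in the non-invading fraction 11 rose and 7 fell, beside 18.2% of all genes that rose and 16.7% that fell in the invading and 15.4% and 12.2% in the non-invading fraction.

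Of 29 further genes of the E2F and retinoblastoma pathway, 2 were higher and 12 lower at 72 h and 5 higher and 8 lower at 96 h, beside 13.0% and 13.5% of all genes at 72 h and 16.7% and 14.7% at 96 h, the higher count at 96 h being about that of all genes. Rb1, the retinoblastoma protein that restrains E2F, was lower at both times with -0.97 (standard error 0.12, adjusted p = 0.0012 from limma) and -0.54 (standard error 0.09, adjusted p = 0.0016). Skp2, part of the ligase that removes the inhibitor p27, had -0.77 and -0.56, Fbxo5, an inhibitor of the anaphase complex, -0.78 at 72 h, and the D cyclin Ccnd3 0.47 at 96 h. With time 12 of the 29 rose and 1 fell in the invading fraction, led by the E2F factors E2f5 (0.63) and E2f6 (0.61), against 6 and 8 in the non-invading fraction. Of 32 mitotic genes, which act after S phase, 0 were higher and 16 lower at 72 h and 2 higher and 3 lower at 96 h, with medians of -0.36 and 0.01. Against the shares of all genes just given, both counts of mitotic genes at 96 h were below the background. Bub1, a kinase of the spindle checkpoint, had -1.07 at 72 h (standard error 0.09, adjusted p = 0.00031), and Mki67, a marker of cycling cells, had -0.63 at 72 h and -0.44 at 96 h. With time 14 mitotic genes rose and 2 fell in the invading fraction, beside 1 and 9 in the non-invading fraction. For the changes of both lists over time, 18.2% of all genes rose and 16.7% fell in the invading fraction. In the non-invading fraction these shares were 15.4% and 12.2%.

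The replication-dependent histone genes, whose transcripts accumulate in S phase and are bound by Slbp, passed the test in larger number at 96 h than at 72 h. Of 27 measured, 7 were higher in the invading fraction, 1 was lower and 19 did not pass at 72 h, and 18 were higher and 0 lower at 96 h, beside 13.0% and 13.5% of all genes at 72 h and 16.7% and 14.7% at 96 h. The medians were 0.18 and 0.34. At 96 h H4c6 had 0.99 (standard error 0.11, adjusted p = 0.00018 from limma) and H4c3 0.89. From 72 to 96 h 1 rose and 12 fell in the invading fraction and 0 rose and 15 fell in the non-invading fraction. Of all genes 16.7% and 12.2% fell, and 18.2% and 15.4% rose, in that order of the fractions. Members of this family are near-identical in sequence, and their probe sets may share signal. No test compared any of these lists with the 45 members or with the rest of the genes.

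The members with an E2F match in the window were spread over the groups of calls. Of the 14, 1 was higher and 3 lower in the invading cells of 72 h and 5 higher and 0 lower at 96 h. Of the 23 members with a window but no match, the corresponding counts were 0 and 6, and 7 and 1. The median difference at 96 h was 0.15 with and 0.14 without a match, and at 72 h -0.01 and -0.08. Over time the members with a match had medians of 0.08 in the invading and -0.22 in the non-invading fraction, beside 0.17 and -0.07 without. Rfc4 and Prim1, which rose most in the invading fraction, had windows with 0 matches. Rfc3, printed above, had 2 and rose most in the non-invading fraction. Windows of other replication genes held a match in 31% and those of mitotic genes in 6.9%.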

How the data were processed

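The labelled RNA of 18 samples was hybridised to Affymetrix Mouse Gene 1.0 ST arrays. Per the labels and methods, the authors deposited log2 values per probe set, made with RMA in Affymetrix Expression Console (version 1.2), with background correction and quantile normalization between arrays. These values were used unchanged. Invading and non-invading samples were compared with limma 3.58.1 (R 4.3.3), each time in a fit of its own. A fit over all 18 samples gave the changes over time and the difference between times. P-values were adjusted after Benjamini and Hochberg over all 35556 probe sets, and an adjusted p under 0.10 was a pass. On simulated data, 100 of the 35556 probe sets were changed 2-fold and 100 were changed 1.5-fold. Of the former 82 were recovered at 72 h and 91 at 96 h, and of the latter 69 and 79. In the measured data 9888 and 12352 probe sets passed at these times, which makes the cutoff on the unadjusted p less strict than in the simulation. The shares recovered therefore do not give the sensitivity of the calls reported here. The number of arrays limits the precision. Named members were the 4 largest changes each way past the test per comparison, and Pcna, Mcm2, Cdc6, Cdt1, Ccne1, Ccne2, E2f1, Rrm2 and Slbp. The other members that are named were chosen after their values were seen. The members and gene lists were chosen with earlier results of these data known. Alternatives covered normalization, filters, probe sets, thresholds, a replicate block and leaving out each sample.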

Additional observations from a re-analysis of the deposited data

Results flagged for a closer look

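Within groups, 11 of 180 sets of values (45 members in 4 groups) had a sample far from the others by Dixon's test, where chance flags about 5% or 9 sets. Non-invading replicate 4 of 96 h was the high sample in 6 of them, with log2 signals of 10.45 for Mcm2, 9.48 for Mcm4, 10.31 for Mcm7, 8.96 for Pole2, 10.72 for Pold2 and 10.25 for Rpa1. The nearest other samples of that group stood at 10.03, 9.21, 9.93, 8.39, 10.33 and 9.98. In the invading fraction of 96 h, replicate 1 was low for Mcm5 (9.49), replicate 2 high for Prim1 (9.66) and replicate 5 low for Rrm2 (9.13). At 72 h, invading replicate 1 was high for Rfc1 (9.02) and invading replicate 3 low for Uhrf1 (9.16).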

How the results depend on the processing

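In all alternatives more of the members that passed were lower at 72 h and higher at 96 h in the invading fraction, and the median at 72 h turned positive under centring on the median of all probe sets (0.02). With a ratio above 1.5 required as well, the counts past the test were 1 at 72 h, 1 at 96 h, 4 over time in the invading and 1 in the non-invading fraction. Centring on the median of all probe sets gave 8 at 72 h and 27 at 96 h, with a median of 0.26 at 96 h. Leaving out 1 sample gave 10 to 13 at 72 h, 10 to 25 at 96 h (25 without non-invading replicate 4), 15 to 23 over time in the invading and 11 to 23 in the non-invading fraction, and 0 for the difference between times. Shares of all genes past the test were not counted with a sample left out or after centring. Of the members past the test, 7 of 13 at 72 h, 10 of 14 at 96 h, 12 of 18 and 9 of 16 over time passed in every alternative other than the stricter thresholds (a ratio above 1.5 as well, or an adjusted p under 0.05). The replicate numbers are shared between the fractions. After the group means were removed, same-numbered samples correlated at -0.075 to 0.087 at 72 h and 0.049 to 0.17 at 96 h. Of the invading samples, 1 of 4 at 72 h and 4 of 5 at 96 h were closest to their own number. The paper gives a paired t-test for receptor levels taken from the arrays, and names no pairing for its gene-wise limma test. Whether the numbers pair the samples is thus not settled. With the replicate block, which over time makes no use of the samples numbered 5, the counts were 12 at 72 h, 15 at 96 h, 16 over time in the invading and 9 in the non-invading fraction (3 higher and 6 lower), and 0 for the difference between times.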
